A study of Mus musculus with 12 samples.

Results

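Livers of fasted and refed mice were compared in 25719 assembled loci, out of 66468 that the deposited tables hold. FA mice were fasted for 16 h, and RF mice were refed for 6 h after a fast of the same length. All were wild-type male C57BL/6 mice (named C57BL/6N in the study's methods) of 17 weeks on control diet, with 4 libraries in each group, and a further group of 4 libraries came from mice fed ad libitum (AL). Total RNA was depleted of ribosomal RNA, and the study used these groups to ask how coding and long noncoding transcripts of the liver follow the nutrient state. The comparison of RF with FA asks which liver transcripts differ once food is given back.

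Levels are in FPKM, a fragment count scaled by transcript length and by library size, and the tables give 1 pooled value for each group. There is therefore no spread between livers, the depth of each library is unknown, and the differences below are descriptions of pooled levels without a test. A locus entered when its FA value in the table of RF and FA lay within 10% of its FA value in the table of FA and AL. Both rows were then taken to describe the whole locus, although a locus with 1 dominant transcript could also pass. Just inside this limit lay Dhrs7b, with FA values of 2.18 and 2.42 (9.93% apart), and just outside lay Gm37055, with 1.07 and 1.19 (10.02% apart). The other 13645 loci with an FA value above 0 are given in the RF table by 1 of their transcripts, in no case with an FA value above that of the locus. Of the whole loci, 8338 reached an FPKM of 1 in the higher group with values above 0 in both, and they name 5966 genes. A further 17331 were under 1 in both groups and 50 reached 1 in FA and are listed at 0 in RF. Of the 8338 loci, 6261 ran against the strand of the gene they name. A value given below for a gene is often that of such a locus. The sources used here do not say when in the day livers were taken, so feeding and time of day cannot be told apart. In bulk liver, fewer cells of a type and less RNA per cell cannot be told apart either.

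Refeeding after a fast raises insulin and glucose in the portal blood. In the liver this is known to restrain gluconeogenesis and fatty acid oxidation, to switch on lipogenesis and sterol synthesis through the SREBP and ChREBP transcription factors, and to load the endoplasmic reticulum (ER) with secretory proteins. Insulin signalling also keeps FOXO1, a driver of fasting genes, out of the nucleus.

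RF and FA livers differed at least 2-fold in few loci. Of the 8338 whole loci, 328 were at least 2-fold higher in RF (3.93%) and 300 at least 2-fold lower (3.6%), and the median log2 ratio of RF to FA was 0.01. With 1 locus for each gene, 176 of 5966 genes were higher (2.95%) and 167 were lower (2.8%), with a median of 0.02. Of the loci past the line, 191 higher loci were under 1 FPKM in FA and 187 lower loci were under 1 in RF, and these entered through the group where they were high. Among the 7004 loci at 1 FPKM or more in both groups, 137 were higher and 113 lower. The shares over all loci and genes are the background for the gene lists below, where "higher" and "lower" refer to this 2-fold line unless a value is given. The loci past the line became more one-sided with level. Of 3612 loci at 1 to 2 FPKM 127 were higher and 156 lower, whereas of 493 loci at 20 FPKM or more 32 were higher and 14 lower.

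**Figure D1:**
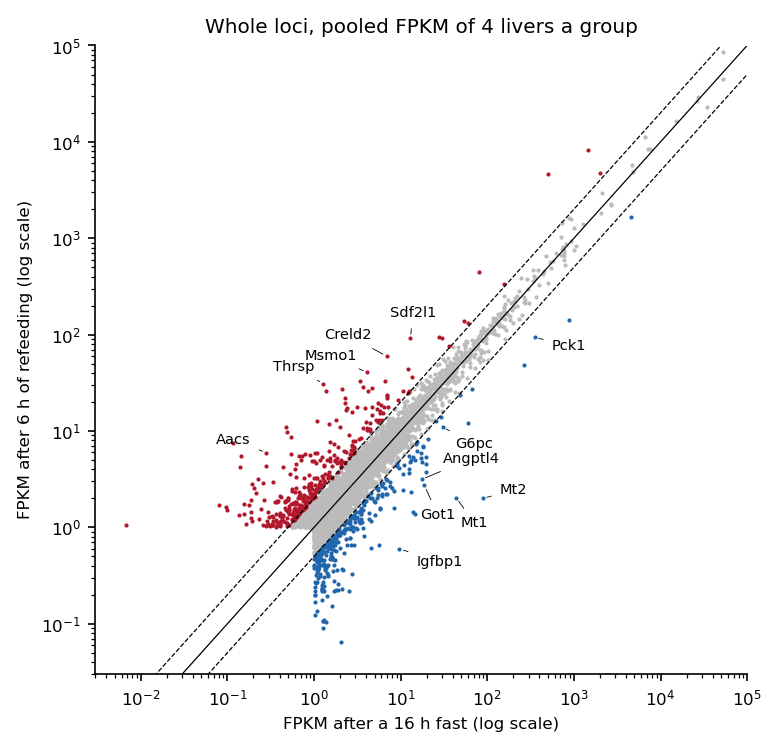
FPKM of 8338 whole loci in FA (x axis) and RF (y axis), both on log scales, each point 1 locus with 1 pooled value a group. The solid line marks equal values and the dashed lines 2-fold differences, with 328 loci above (red) and 300 below (blue), and 2 loci lie past the axes.

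Sterol synthesis stood among the higher lists, with 5 of 7 genes higher and 0 lower and a median log2 ratio of 2.45. Msmo1, the sterol C4-methyl oxidase, went from 4.09 in FA to 40.6 in RF (9.92-fold), above its AL level of 23.1. Nsdhl, which acts in the same demethylation, went from 0.616 to 4.54, and Sc5d, a sterol desaturase, from 12.3 to 44.0. The mevalonate pathway kinases Mvk and Pmvk went from 0.245 to 1.56 and from 1.08 to 5.88. Mvk and Nsdhl, under 1 FPKM in FA, entered through RF alone, and 3 of the other 5 genes of the list were higher. The 5 higher genes, picked because they passed the line, had 3.57- to 9.92-fold ratios and act at early and late steps. Fdft1, the squalene synthase, with 26.4 in FA and 36.6 in RF, and Ebp, with 8.69 and 12.96, stayed within 2-fold. The other 13 listed genes had no whole locus at 1 FPKM. Hmgcs1, the cytosolic HMG-CoA synthase, was given by 1 transcript holding 4.48 of the 11.8 FPKM of its locus in FA, and that transcript stood at 43.7 in RF. The locus named Nim1k, at 3.36 in FA and 33.1 in RF, covers Hmgcs1 on the other strand.

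Of 8 genes of fatty acid synthesis 4 were higher and 0 lower, with a median of 1.11. Thrsp (chromosome 7, 97412938 to 97417730), a nuclear protein that promotes lipogenesis, had the largest ratio of the protein-coding genes at 5 FPKM or more. It went from 1.28 in FA to 31.1 in RF (24.3-fold), below its AL value of 58.8. Aacs (chromosome 5, 125475814 to 125517410), which makes acetoacetyl-CoA from ketone bodies in the cytosol, went from 0.282 to 5.96 (21.1-fold), with 3.99 in AL. Acly, the ATP citrate lyase, went from 1.54 to 5.27, and Acaca, the acetyl-CoA carboxylase, from 0.915 to 2.70. The elongase Elovl5, with 6.62 in FA and 5.36 in RF, and the desaturase Fads2, with 55.3 and 76.0, stayed within 2-fold. Aacs, Acaca and Fabp5, a fatty acid carrier, entered through RF alone, and 2 of the other 5 were higher. Fasn, the fatty acid synthase, was given by 1 transcript only, with 0.821 of 3.12 FPKM in FA and 10.3 in RF. Scd1, the stearoyl-CoA desaturase, was likewise given by 1 transcript of a larger locus, with 5.46 and 6.62.

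In the pentose phosphate pathway, which supplies NADPH for lipid synthesis, all 4 genes had higher values in RF and Pgd passed the line, from 1.11 to 2.59997. Gys2, the liver glycogen synthase, was lower, from 6.90 to 2.25, a call that ended when 1-transcript rows were included (log2 ratio -0.12), while the branching enzyme Gbe1 stood at 8.60 and 17.0.

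Of 9 gluconeogenic genes 4 were lower and 0 higher, with a median of -0.61 and 3 values above 0. Pck1 (chromosome 2, 173153048 to 173159273), the phosphoenolpyruvate carboxykinase, went from 351 in FA to 93.9 in RF (3.74-fold lower), close to the 75.7 of AL. G6pc, which releases free glucose, went from 30.5 to 11.0, below the 28.1 of AL. Got1, the cytosolic aspartate aminotransferase, went from 18.8 to 2.72 (6.90-fold lower), and the coactivator Ppargc1a from 3.18 to 1.25. Gpt, an alanine aminotransferase, was nearly level at 87.07 and 87.7.

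Among insulin signalling genes and FOXO targets, the kinases and adaptors stayed within 2-fold and 2 of 9 genes were lower. Igfbp1 (chromosome 11, 7197782 to 7202546), a secreted IGF-binding protein under insulin control, went from 9.70 to 0.598 (16.2-fold lower), under its AL value of 4.19. Trib3, a pseudokinase that binds AKT, went from 5.61 to 0.662, also under the 1.81 of AL. Both were under 1 FPKM in RF and entered through FA alone. Akt1 stood at 1.49 and 1.61, Akt2 at 3.11 and 3.67 and Pik3r1, a regulatory subunit of PI3-kinase, at 3.03 and 4.74. Irs2, an insulin receptor substrate, stood at 0.0964 and 0.0555 and Fgf21, a fasting hormone, at 0.914 and 0.443, both under 1 FPKM. Srebf1, Srebf2, Insig1 and Ppara had no whole locus at 1 FPKM, so their levels are not reported.

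Fatty acid oxidation and ketogenesis had 3 of 14 genes lower and 0 higher, with a median of -0.54 and 12 of 14 values below 0. Angptl4, an inhibitor of lipoprotein lipase, went from 17.5 in FA to 3.15 in RF (5.56-fold lower), Acot1, an acyl-CoA thioesterase, from 17.4 to 5.21, and Slc22a5, the carnitine transporter, from 3.34 to 1.17. The enzymes of the oxidation spiral themselves lay within 2-fold. Ehhadh, the peroxisomal bifunctional enzyme, stood at 163 and 112, against 61.3 in AL. Cyp4a14, a fatty acid hydroxylase, stood at 502 and 345, against 6.01 in AL, so it remained far from the fed level. Acadvl, a mitochondrial dehydrogenase, was level at 112.9 and 113.0. Of 9 genes of triglyceride synthesis and lipid droplets 2 were lower, Cidec from 1.08 to 0.274 and Pnpla2, the adipose triglyceride lipase, from 5.53 to 2.46. Cidec entered through FA alone.

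**Figure D2:**
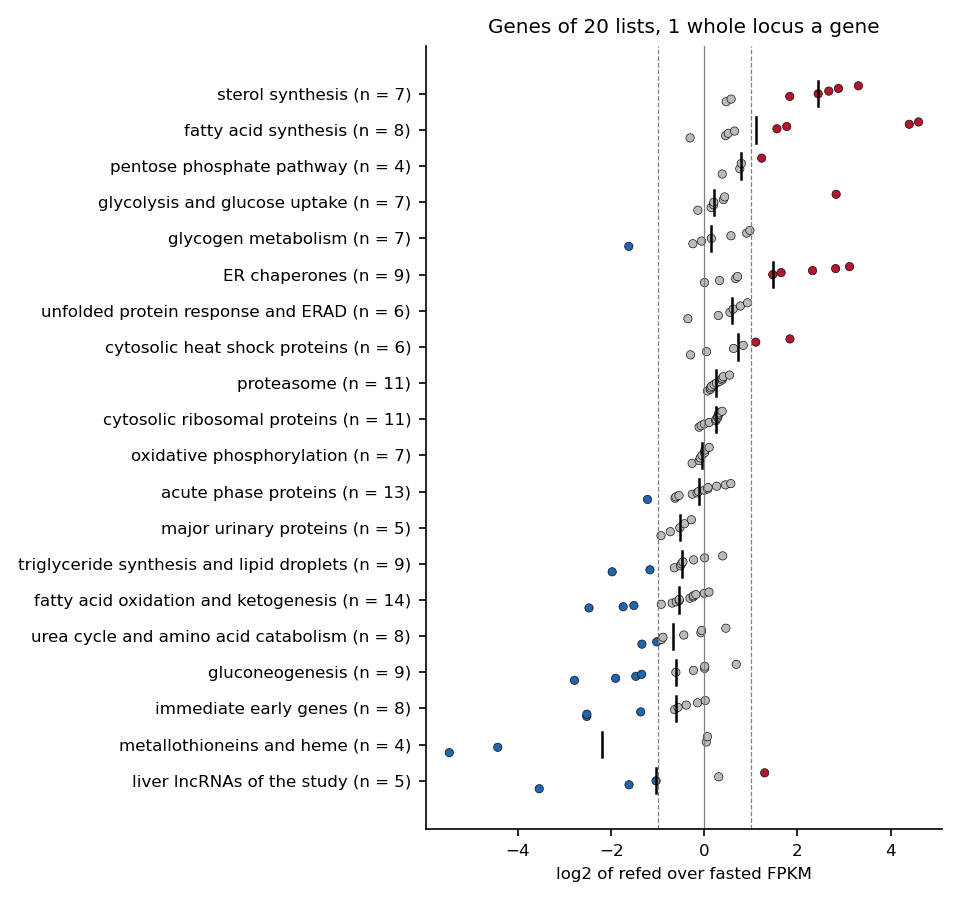
Log2 ratio of RF to FA (x axis) for the genes of 20 lists (rows), each point 1 gene with 1 whole locus, black bars the median of a list, and dashed lines the 2-fold line. Sterol synthesis (median 2.45) and ER chaperones (median 1.47) lie to the right, and gluconeogenesis (median -0.61) and fatty acid oxidation (median -0.54) to the left.

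Of 16 listed ER chaperones 9 had a whole locus at 1 FPKM. Among them 5 were higher and 0 lower, with a median of 1.47 and all 9 at 1 FPKM or more in both groups. Creld2, an ER stress-inducible protein, went from 6.89 in FA to 59.9 in RF (8.69-fold), where AL stood at 9.80. Sdf2l1, a partner of ER HSP40 proteins, went from 12.98 to 91.7, with 37.7 in AL. Hyou1, a large HSP70-related chaperone, went from 6.58 to 33.0, Pdia4, a disulfide isomerase, from 6.96 to 21.8, and Dnajb11, a co-chaperone of BiP, from 5.75 to 16.0. In each of these 5 genes the RF value lay above the AL value, unlike Thrsp or Sc5d. The locus that Hspa5, the BiP gene, shares with Gm24905 stood at 1.44 and 1.45. It is counted among the 9, but how much of its value belongs to Hspa5 cannot be told. The 6 genes of the unfolded protein response and of ER-associated degradation lay within 2-fold, with a median of 0.59 and Edem1, a mannosidase-like degradation factor, at 15.6 and 29.7. In the cytosol, Hsp90aa1 went from 5.51 to 19.7 and the small heat shock gene Hspb1 from 2.198 to 4.73.

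The promoter of Creld2 is printed because it alone among the higher genes with a matched promoter held the ER stress element, CCAAT and CCACG separated by 9 bases on either strand. It comes from RefSeq (GRCm38.p6, chromosome 15, 88819396 to 88819695, plus strand), 250 bases before to 50 after the annotated start. Capitals mark the element, which lies in reverse orientation and begins 126 bases before the start.
Creld2: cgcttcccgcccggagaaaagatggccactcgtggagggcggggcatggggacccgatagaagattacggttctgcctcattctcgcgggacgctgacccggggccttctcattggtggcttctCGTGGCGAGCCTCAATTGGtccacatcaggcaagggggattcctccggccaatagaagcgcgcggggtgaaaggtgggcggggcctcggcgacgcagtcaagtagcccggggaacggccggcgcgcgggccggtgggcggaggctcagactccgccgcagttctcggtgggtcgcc
The element was found in 0.119% of 32851 promoters of this length. A promoter was matched to 3736 of 4894 protein-coding genes with a whole locus, 96 of them higher and 74 lower in RF. The shorter CCAAT box, which is also part of that element, was present in 42.4% of the 3736, in 53 of the 96 higher genes (55.2%) and in 33 of the 74 lower genes (44.6%). The forkhead site GTAAACA was present in 3.37% of the 3736, in 5 higher genes (5.21%) and in 6 lower genes (8.11%). The sterol element TCACNCCAC was present in 1.18% of the 3736, in 0 higher genes and in 1 lower gene. The E-box CACGTG was present in 11.9%, in 8 higher genes (8.33%) and in 11 lower genes (14.9%), and the cAMP element TGACGTCA in 3.51%, in 1 higher and 2 lower genes. The antioxidant element TGACNNNGC, which is part of the sites that MAF and NRF proteins bind, was present in 16.9% of the 3736, in 22 of the higher genes (22.9%) and in 8 of the lower genes (10.8%). These are matches of letters and not sites shown to be bound.

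Metallothioneins, small proteins that bind zinc and copper and are induced by metals and glucocorticoids, had the lowest ratios of the protein-coding genes at 5 FPKM or more. Mt2 went from 89.0 in FA to 2.00 in RF (44.5-fold lower), and Mt1, in a locus on the other strand, from 43.9 to 2.03 (21.6-fold lower). AL values were 2.84 for both, so that FA alone was high. Fech and Hfe2, of heme and iron metabolism, stood at 8.47 and 8.88 and at 9.37 and 9.66. The promoters of the pair are printed with the metal response element, TGCACNC or TGCGCNC on either strand, in capitals. They lie on chromosome 8 (RefSeq, GRCm38.p6, plus strand), at 94178839 to 94179138 for Mt1 and 94172368 to 94172667 for Mt2.
Mt1: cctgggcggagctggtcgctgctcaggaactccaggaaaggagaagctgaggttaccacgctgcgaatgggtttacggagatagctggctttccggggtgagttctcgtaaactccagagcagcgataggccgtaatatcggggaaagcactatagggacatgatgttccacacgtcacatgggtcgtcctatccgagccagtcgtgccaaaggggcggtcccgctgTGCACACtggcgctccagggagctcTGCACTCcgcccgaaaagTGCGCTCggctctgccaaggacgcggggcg
Mt2: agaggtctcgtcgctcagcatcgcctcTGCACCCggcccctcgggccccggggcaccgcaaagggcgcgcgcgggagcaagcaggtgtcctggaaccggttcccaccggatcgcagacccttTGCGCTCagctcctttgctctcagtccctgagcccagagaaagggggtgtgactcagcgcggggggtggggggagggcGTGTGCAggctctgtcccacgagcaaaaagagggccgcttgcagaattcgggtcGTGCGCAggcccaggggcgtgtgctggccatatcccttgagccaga
Mt1 held 3 such elements and Mt2 held 4. At least 3 were present in 1.97% and at least 4 in 0.517% of all 32851 promoters, and at least 1 in 25.7%. Single elements were common, in 31 of the 96 higher genes (32.3%), in 23 of the 74 lower genes (31.1%) and in 40.1% of the 3736 genes.

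Of 8 immediate early genes 3 were lower and 0 higher. Junb, an AP-1 subunit, went from 13.3 to 2.31, Egr1, a zinc finger transcription factor, from 1.25 to 0.217, and Btg2, an antiproliferative gene, from 3.53 to 1.37, Egr1 having entered through FA alone. Dusp1, a MAP kinase phosphatase, stood at 4.82 and 4.36. Gadd45g, a growth arrest gene, went from 3.403 to 1.101, and Sesn2, a leucine sensor upstream of mTORC1, from 1.27 to 0.454. Sesn2 also entered through FA alone. Of 8 genes of the urea cycle and amino acid catabolism 2 were lower, Hal, the histidine ammonia lyase, from 20.9 to 8.27 and Aass, of lysine breakdown, from 15.6 to 7.70. Lcn2, an acute phase gene, went from 9.64 to 4.14, the other 12 acute phase genes lying within 2-fold. The nuclear receptor Nr0b2, which represses bile acid synthesis, went from 3.54 to 1.37, while Cyp7a1, the rate-limiting enzyme of that pathway, stood at 40.05 and 44.5.

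Among secreted factors and clock genes, some were higher. Angptl8, a feeding-induced regulator of lipoprotein lipase, went from 3.85 to 17.2 (4.47-fold), and Tsku, a liver-secreted leucine-rich protein, from 4.67 to 27.8 (5.95-fold). Cry1, a core clock repressor, went from 0.401 to 1.35, while Arntl, the clock activator BMAL1, stood at 1.21 and 1.38 and Per1 at 2.03 and 1.94. Cry1 entered through RF alone. Cyp2c70, which hydroxylates bile acids in the mouse, went from 2.31 to 21.9. Housekeeping lists had no gene past the line. These were 11 cytosolic ribosomal proteins (median 0.25), 11 proteasome subunits (median 0.26), 12 aminoacyl-tRNA synthetases (median 0.15), 10 translation factors (median -0.06) and 7 subunits of oxidative phosphorylation (median -0.05).

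**Figure D3:**
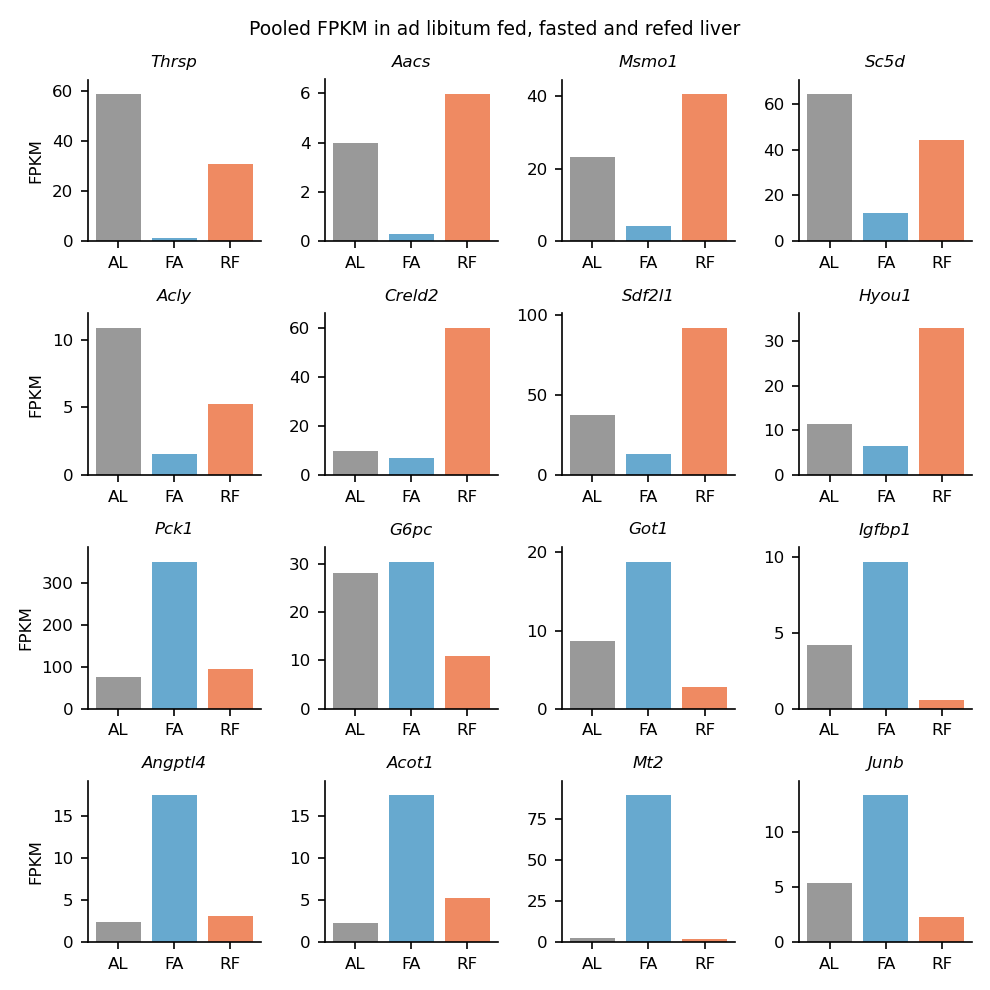
Pooled FPKM (y axis, from 0, 1 value a group without error bars) of 16 genes in AL, FA and RF liver. RF lies above AL for Creld2 (59.9 against 9.80) and below it for Thrsp (31.1 against 58.8), and Mt2 is high in FA only (89.0).

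Values of RF were also set beside AL. The tables were normalised separately and share the FA libraries, so this is a description only. Of 174 genes higher in RF with a value in AL, 127 had an RF value above AL and 37 were at least 2-fold above it. Of 167 genes lower in RF, 129 had an RF value below AL and 41 were at least 2-fold below it. These genes were chosen on their RF values, so the counts are a description only. Over all 5962 genes with a value in AL RF lay above AL in 48.7%, at least 2-fold above in 1.71% and at least 2-fold below in 1.88%. Of these, Got1 stood at 8.68 in AL and 2.72 in RF, and Igfbp1 at 4.19 and 0.598.

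Long noncoding RNAs were compared with protein-coding loci because the study asked whether both follow feeding alike. Of 392 lncRNA loci, 20 were higher (5.10%) and 28 lower (7.14%), with a median log2 ratio of -0.05. Of 6675 protein-coding loci, 174 were higher (2.61%) and 152 lower (2.28%), with a median of 0.01. On the annotated strand 13 lncRNA loci were higher and 15 lower, and on the opposite strand 7 were higher and 13 lower. No test of the difference between the classes is possible with pooled values.

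Several of the lncRNAs with the highest ratios overlapped a protein-coding gene. The antisense gene 4930483K19Rik (chromosome 10, 76545871 to 76562226) went from 0.258 to 2.86 (11.1-fold) and overlaps Lss, the lanosterol synthase. Gm43031, within Akap9 in a locus whose span also holds Cyp51, the lanosterol demethylase, went from 0.525 to 3.61. Gm14493, over Mid1ip1, which helps acetyl-CoA carboxylase polymerise, went from 4.17 to 26.2. RP23-93F3.4, over Ppp1r3b, a glycogen-targeting phosphatase subunit, went from 0.999 to 4.86. Of these lncRNAs, 4930483K19Rik, Gm43031 and RP23-93F3.4 were under 1 FPKM in FA and entered through RF alone. A higher RF value was therefore fixed for them. Of the 42 lncRNA genes past the line, 28 overlapped a protein-coding gene (66.7%), against 287 of all 372 with a whole locus (77.2%). A lncRNA and its overlapping gene may share fragments here, and their part in these ratios was not tested.

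A group of lncRNAs with low ratios, the lowest pair among them, lay on chromosome 8 near Irs2. Gm45044 (10884453 to 10891591), B930025P03Rik (10870422 to 10882454) and Gm45043 (10898169 to 10900558) went from 2.03 to 0.0647 (31.3-fold lower), from 2.54 to 0.218 (11.7-fold lower) and from 2.86 to 0.651 (4.395-fold lower). The neighbour 4833411C07Rik, annotated as a processed transcript, went from 3.79 to 1.85. These 4 genes span 33.5 kb and end 80.8 kb from Irs2, and all 6 of their whole loci at 1 FPKM, from both strands, were at least 2-fold lower. Only the locus of 4833411C07Rik was at 1 FPKM or more in both groups. The other loci were under 1 FPKM in RF and entered through FA alone, so that a lower RF value was fixed for them. AL values of Gm45044 and B930025P03Rik were 0.0897 and 0.217, near those of RF. Elsewhere, Gm15582, an antisense gene over Fgfr2, went from 1.66 to 0.355 and Gm14097, over Shld1, from 17.6 to 4.73. Gm15582 also entered through FA alone.

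Of the 7 liver-enriched lncRNAs that the study picked for their behaviour in obesity, 5 had a whole locus. For each the locus with the highest level ran against the gene. Besides B930025P03Rik and 4833411C07Rik, 9030616G12Rik was lower, from 6.82 to 2.23. C730036E19Rik was higher, from 10.5 to 25.9, and 9030622O22Rik stood at 9.14 and 11.3. By qPCR the study reported its liver lncRNAs as reduced in RF against FA, which the values of C730036E19Rik and 9030622O22Rik do not show. On their annotated strands 9030616G12Rik stood at 1.12 and 0.758 and C730036E19Rik at 3.41 and 4.88, both within 2-fold. Of the small MAF factors and their partners, on which the study centred, Bach1, a repressor that pairs with them, stood at 4.03 and 3.23, Nfe2l2 at 3.67 and 4.16 and Nfe2 at 1.46 and 1.68. Mafg, Maff, Mafk and Nfe2l1 had no whole locus at 1 FPKM.

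Strand bears on most of these values. The kit marks strand, and 6261 of the 8338 loci (75.1%) ran against the named gene, 1502 ran with it, and 575 had no gene. The values given for Thrsp, Aacs, Msmo1, Pck1, G6pc, Got1, Igfbp1, Angptl4 and Cyp2c70, among others, come from loci against the gene. Levels can differ between strands. In FA the own-strand locus of Pck1 stood at 606 against 351, and that of Cyp2c70 at 25.2 against 2.31. For both, the own-strand RF value was that of 1 transcript. Of loci at 0 in AL, FA and RF that have a strand, 99.9% lay on the annotated strand. Loci without fragments can come from the annotation, so this share does not tell how the libraries were stranded. Alb, the albumin gene, is among those listed at 0. Where a gene had a whole locus on each strand, the ratios ran in parallel. Over 353 such genes the Pearson correlation of log2 ratios was 0.89 and the Spearman correlation 0.85, across genes that share libraries, and the median difference was 0.12. Of 23 genes past the line on their own strand, 17 were past it on the same side on the other, and 0 had opposite signs. Thrsp had log2 ratios of 4.347 on its own strand and 4.601 on the other, Creld2 3.12 and 2.38, G6pc -1.41 and -1.47, and Acot1 -1.71 and -1.74. Of 1399 genes with several whole loci, 102 had a locus past the line, 35 of these had all their loci past it on the same side, and 0 had a locus higher and another lower.

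**Figure D4:**
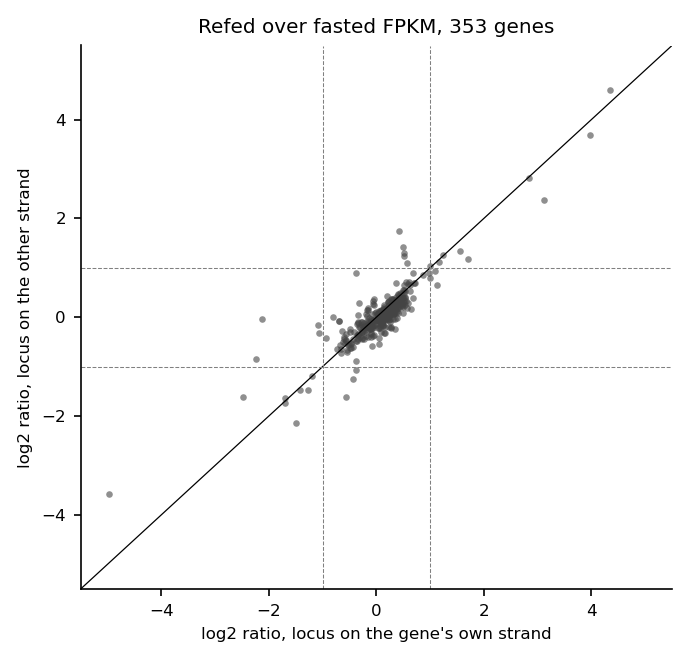
Log2 ratio of RF to FA in the locus on the gene's own strand (x axis) and in the locus on the other strand (y axis) for 353 genes, each point 1 gene, with the line of equal ratios solid and the 2-fold lines dashed. The points follow the line of equal ratios (Pearson correlation 0.89).

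Of the 575 loci with no gene name, 97 were higher (16.9%) and 84 lower (14.6%). A group of them lay over transfer RNA genes, which RNA polymerase III transcribes and which supply the ribosome with amino acids. They were matched to the 430 tRNA genes of RefSeq after their values had been seen. Of 26 such loci under 1000 bases, 21 were at least 2-fold higher in RF and 0 lower, with a median log2 ratio of 2.16. Without the limit of length there were 29 loci, 22 higher and 0 lower, with a median of 1.64. Of the 26, 14 were under 1 FPKM in FA and entered through RF alone, so that a higher RF value was fixed for them. Among the 12 at 1 FPKM or more in FA 11 were at least 2-fold higher. Among the 25 of the 26 at 1 FPKM or more in AL 20 were. These 25 include loci that entered through RF alone, so the AL level does not lift that limit. FA values ran from 0.0994 to 81.1 FPKM with a median of 0.905, and RF values from 1.07 to 452 with a median of 4.85. The 218 other short loci without a name had 39 higher and 40 lower and a median of 0.07.

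The tRNA loci served 14 amino acids on 10 chromosomes, with 12 of the loci on chromosome 13 between 21170215 and 23522115. Serine tRNA loci held the ends of the range. The locus of n-TSaga1 went from 0.143 to 5.47 (38.2-fold) and that of n-TScga1, the most abundant, from 81.1 to 452 (5.57-fold), while that of n-TSgct7 stood at 1.26 and 1.72. The leucine locus of n-TLcag10 went from 53.8 to 137 and the tyrosine locus of n-TYgta3 from 0.898 to 5.63. In 12 of the 26 the RF value lay above AL. Of a chosen set of other transcripts of the same polymerase, given next, a 5S rRNA locus alone passed the line. The 60 loci of small nuclear RNAs, with 0 higher and 3 lower, were not sorted by polymerase. Rn7sk, which restrains transcription elongation, stood at 26038 and 26721, the RNase P RNA Rpph1 at 6.66 and 5.47, Rmrp, the RNA of RNase MRP, at 10.8 and 8.57, and the vault RNA Vaultrc5 at 27.7 and 22.3. The Y RNAs Rny1 and Rny3 had lower values in RF, at 13.3 and 7.42 and at 24.8 and 16.7. Of 8 loci naming a 5S rRNA gene 1 was higher, n-R5s193, from 2008 to 4741. The level of mature tRNA was not measured separately.

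**Figure D5:**
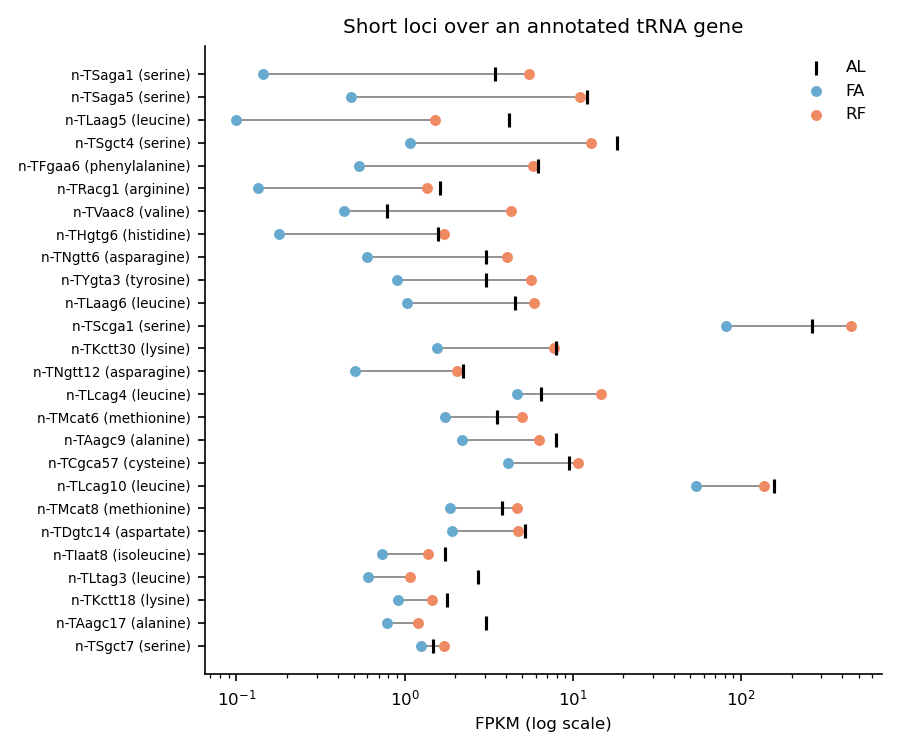
FPKM (x axis, log scale) of 26 short loci over a tRNA gene in FA (blue), RF (orange) and AL (black bars), 1 row a locus with the RefSeq tRNA gene and its amino acid, ordered by ratio. RF lies to the right of FA, which the entry limit of 1 FPKM fixes for the 14 loci with FA under 1 and not for the 12 others.

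Of the markers of liver cells other than hepatocytes with a whole locus, 0 passed the line. Of the Kupffer cell list 3 of 9 had a whole locus, with a summed level of 13.4 in FA and 10.8 in RF. Of the endothelial list 4 of 8 summed to 16.1 and 14.4, and of the stellate cell and fibroblast list 6 of 9 to 60.8 and 62.7. Of the neutrophil list 2 of 6 summed to 2.998 and 2.31, and of the erythroid list 3 of 6 to 778 and 823. Cholangiocyte, lymphocyte and adipocyte lists had 0 whole loci at 1 FPKM. Of the hepatocyte markers 4 of 12 had a whole locus. Ass1, of the urea cycle, stood at 30.001 and 16.2, within the line but 1.85-fold lower. Apob, of lipoprotein assembly, stood at 449 and 452, Fabp1, a fatty acid carrier, at 1290 and 1406 and Hnf4a, a hepatocyte transcription factor, at 24.0 and 21.5. Of the periportal list 2 of 9 had a whole locus, Pck1 and Hal, both lower and both also in the metabolic lists.

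The locus shared by Mir6236 and Scap stood at 57.1 in AL, 873 in FA and 142 in RF, and a locus named Filip1l at 4.18, 59.4 and 12.1, while a further locus of that name stood at 1.44 in FA and 1.72 in RF. Neither is read here as a level of Scap or Filip1l.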

How the data were processed

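RNA-Seq of liver was deposited as 2 tables of 66468 loci, one for FA and AL and one for RF and FA. The labels and methods state ribosomal depletion, strand-specific libraries, trimming, removal of ribosomal reads with Bowtie2 2.2.9, alignment to GRCm38 with STAR 2.6.0c, and assembly and comparison with Cufflinks 2.2.1 and Ensembl release 90 names. The deposited values are FPKM, pooled by the authors into 1 value per group, so no SD, interval or depth can be given. Fold changes, p-values and q-values in the tables are the authors' comparisons and were not used. No column of single libraries was left out (0).

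Groups came from sample titles. Ratios of RF to FA were computed without a pseudocount for whole loci, and a locus was counted at 2-fold and an FPKM of 1 in the higher group. No statistical test between groups was run. For a gene with several loci, the one with the highest mean of FA and RF was used. The strand of a locus was read from the order of the locus numbers along each chromosome. Named genes were the 10 highest and 10 lowest protein-coding genes at 5 FPKM, the 5 highest and 5 lowest lncRNAs, up to 5 members of each of 52 lists past the line, and a set of fixed names. Some genes that this rule takes are not reported here. Others named here, the tRNA loci among them, were chosen after their values were seen. The members and lists were chosen with earlier results of these data known. Of 701 listed genes, 308 had a whole locus at 1 FPKM. Promoters came from RefSeq (GRCm38.p6) and gene spans from GENCODE M21. The rule for calls was tested on simulated data. Python 3.11.15, pandas 2.3.3, numpy 2.4.6, scipy 1.17.1 and matplotlib 3.10.9 were used.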

Additional observations from a re-analysis of the deposited data

How the results depend on the processing

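No paired analysis was possible because the tables hold 1 pooled value per group, and leaving out single replicates could not be run for the same reason. The main counts, higher and lower in RF, were 328 and 300 for all loci, 174 and 152 for protein-coding loci and 20 and 28 for lncRNA loci. With an FPKM minimum of 5 they were 103 and 69, 58 and 45, and 5 and 5. With no minimum they were 2294 and 2656, 665 and 697, and 181 and 243. With a pseudocount of 1 they were 148 and 92, 76 and 46, and 8 and 9, and with a 1.5-fold line 759 and 676, 484 and 404, and 42 and 58. With all rows, 1-transcript rows included, protein-coding counts were 310 and 229. On the annotated strand alone they were 52 and 54, 25 and 14, and 13 and 15. On the opposite strand alone, an alternative added after the data were seen, they were 179 and 162 for all loci and 7 and 13 for lncRNAs. The share of higher loci among all past the line was 52.2% as reported, 59.9% at the minimum of 5, 61.7% with the pseudocount and 46.3% with no minimum. Centring on the median, an FA match within 1%, loci naming 1 gene and loci marked OK kept these counts within 1.5 times. List medians past the 2-fold line that changed sign were those of metallothioneins and heme (-2.20 as reported, 0.044 with no minimum, 0.028 with all rows and 0.044 on the opposite strand alone), where Mt1 and Mt2 are set among genes near 0, and of the liver lncRNAs (-1.04 as reported, 0.31 at the minimum of 5). No named gene past the line changed direction under these alternatives. With the pseudocount 35 of 73 named genes had a log2 ratio that moved by more than 1.5-fold or back across the line, Gys2 (-0.12) and Col27a1 (0.36) lay within it with all rows, and C730036E19Rik (0.52) and 9030616G12Rik (-0.56) on the annotated strand. The causes were not tested. Depth is unknown, so the precision of values near 1 FPKM cannot be stated.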

Other observations

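The unnamed locus with the highest FPKM spans 14 bases on chromosome 11 (55641510 to 55641523) and is listed at 17627500 in FA, 3911490 in RF and 0 in AL. FPKM divides by length, so values of such short loci are large, and 20 of the whole loci span under 100 bases. In addition, 42 loci at 0 in FA reached an FPKM of 1 in RF. They have no ratio and were left out of the counts.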
